A study of Mus musculus with 59 samples.

Results

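The glucocorticoid receptor gene Nr3c1, the gene of the enzyme that regenerates its ligand, Hsd11b1, and 5 genes known as glucocorticoid-induced targets, Fkbp5, Tsc22d3, Zbtb16, Sgk1 and Fam107a, were followed in 3 tissues of mice given baclofen or vehicle. The members were the probe sets that the array's annotation assigns to exactly 1 gene symbol and whose symbol is 1 of these 7. They numbered 21 probe sets (6 for Nr3c1, 4 for Tsc22d3, 3 each for Fkbp5, Zbtb16 and Fam107a, and 1 each for Hsd11b1 and Sgk1) of 34945 probe sets with 1 symbol, which stand for 18193 genes. The 7 genes were chosen by their measured differences between baclofen and vehicle in these arrays. Those differences are therefore given below as a description, without a test.

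Baclofen, an agonist of the GABA-B receptor, was given to B6C3F1 mice once or on 5 successive days, and control mice received the 0.5% methylcellulose vehicle. Liver (a part of the left lateral lobe), bone marrow (right humerus) and spleen (part of a cross-section) were taken 2 h after the last dose. Total RNA was measured on 59 Affymetrix arrays. In liver, 3 vehicle and 4 baclofen arrays belonged to the 1-day time, and 4 vehicle and 8 baclofen arrays to the 5-day time. For marrow, and likewise for spleen, the vehicle groups held 4 arrays at each time and the baclofen groups 4 at 1 day and 8 at 5 days. No dose, age or sex is given in the sources used here, and no untreated mice were analysed here. The replicate samples are numbered, but the labels do not say that each came from a separate mouse, so p-values measure the spread between these samples.

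Glucocorticoids (corticosterone in mice) enter cells and bind the receptor encoded by Nr3c1, which is held in the cytoplasm by heat shock proteins and co-chaperones, moves to the nucleus and binds DNA at a partly palindromic response element. The enzyme encoded by Hsd11b1 regenerates the active hormone from its inert keto form and is abundant in hepatocytes. Several targets feed back on the pathway: Fkbp5 encodes a co-chaperone that lowers the receptor's affinity for hormone, and Tsc22d3 encodes GILZ, an inhibitor of NF-kappaB and AP-1 signalling. Zbtb16 encodes the zinc finger transcription factor PLZF, Sgk1 a serine/threonine kinase that acts on ion transport, and Fam107a an actin-associated protein.

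RefSeq promoter sequences (build GRCm38.p6) were read for 14 start sites of Hsd11b1, Fkbp5, Tsc22d3, Sgk1 and Fam107a, and the 250 bases before each start were searched on both strands for 3 nested motifs of the glucocorticoid response element. The motifs were the full palindrome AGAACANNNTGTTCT, its core ACANNNTGT and the half-site TGTTCT, so a full palindrome also counts as a core and as 2 half-sites. No sequence was used for Nr3c1 or Zbtb16. The 4 windows below are shown because they cover the range found among the targets, from the full palindrome to no match. Capitals mark the bases of any matched motif.

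Sgk1, start site 5, chr10:21993640-21993889, plus strand: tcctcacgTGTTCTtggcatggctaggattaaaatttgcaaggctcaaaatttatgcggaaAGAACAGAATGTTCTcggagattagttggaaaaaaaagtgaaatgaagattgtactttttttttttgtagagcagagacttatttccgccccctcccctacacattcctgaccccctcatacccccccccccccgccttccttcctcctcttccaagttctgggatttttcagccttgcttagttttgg

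Fam107a, start site 2, chr14:8309780-8310029, minus strand: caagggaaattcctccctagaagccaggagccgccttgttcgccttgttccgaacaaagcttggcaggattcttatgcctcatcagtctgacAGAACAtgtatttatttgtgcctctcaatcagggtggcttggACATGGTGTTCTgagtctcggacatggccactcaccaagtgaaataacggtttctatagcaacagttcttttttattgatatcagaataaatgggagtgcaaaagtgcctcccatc

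Tsc22d3, start site 2, chrX:140600523-140600772, minus strand: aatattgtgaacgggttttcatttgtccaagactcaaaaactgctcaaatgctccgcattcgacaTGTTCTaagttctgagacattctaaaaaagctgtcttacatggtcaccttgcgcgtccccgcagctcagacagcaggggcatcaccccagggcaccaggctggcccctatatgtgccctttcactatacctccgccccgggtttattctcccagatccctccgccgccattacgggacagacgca

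Fkbp5, start site 1, chr17:28486150-28486399, minus strand: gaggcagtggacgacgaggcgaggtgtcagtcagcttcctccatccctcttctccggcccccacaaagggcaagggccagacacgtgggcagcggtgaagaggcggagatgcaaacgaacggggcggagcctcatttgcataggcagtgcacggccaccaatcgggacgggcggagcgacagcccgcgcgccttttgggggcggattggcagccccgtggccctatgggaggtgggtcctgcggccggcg

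The full palindrome was found at 1 of the 14 start sites, in the fifth Sgk1 window, where it reads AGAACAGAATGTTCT. In all, 3 of 32851 RefSeq mouse promoter windows of this length (0.00913%) held it. The half-sites of that Sgk1 window begin 242, 189 and 180 bases before the start. The core was present in 4 of the 14 windows, against 5.84% of all windows, and the half-site in 6 of the 14, against 16.1%. The 14 windows are not independent, because Sgk1 contributes 6 of them and a pair of Fam107a windows is shifted by only a few bases. The second Fam107a window held a core that overlaps a half-site, with half-sites 158 and 110 bases before the start, and the second Tsc22d3 window held a half-site 185 bases before the start. Neither the Fkbp5 nor the Hsd11b1 window held any of the 3 strings. A match is a run of letters, not a measured binding site, and distant enhancers lie outside these windows.

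Some arrays carry labels or transcripts that bear on the results. In the 1-day livers the title and the treatment entry agree and were used, but the source field names the opposite treatment in 5 of 7 arrays, so the baclofen differences of the members in the 1-day liver are also given with the source field. The single values, SDs and medians follow the titles. Transcripts of another tissue were raised in 5 arrays. The mean log2 level of 11 hepatocyte markers was 9.82, 7.05 and 5.87 in spleen vehicle 5-day replicates 3, 1 and 4 and 9.57 in replicate 5 of the 5-day baclofen spleen, while the remaining spleens lay at 4.64 to 5.30 and 14.46 to 14.58 in liver. The mean of 10 skeletal muscle markers was 10 in replicate 3 of the 1-day baclofen marrow and 6.59 to 7.97 in the remaining marrow arrays. Adipocyte markers (5 genes) were at 4.81 to 5.36 in the 5-day vehicle spleens and 5.09 to 7.72 (median 6.47) in the 5-day baclofen spleens. Of the 2 of these genes bright enough to be tested in spleen, 1 passed as higher with baclofen at 5 days, and their median difference was 1.501. Spleen erythroid markers ranged from 8.36 to 11.86. The markers fit the tissue labels otherwise: neutrophil markers were at 12.63 to 13.17 in marrow and 4.61 to 5.04 in liver, B cell markers at 10.50 to 11.60 in spleen, T cell markers at 8.30 to 9.22 in spleen, and pancreatic acinar markers between 5.42 and 6.07 in all 59 arrays. Array medians were 34.7 to 36.8 in liver and 72.6 to 77.6 in marrow and spleen, so levels set across tissues below are on scales that were not shown to be the same.

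The receptor gene was expressed at a similar rank in all 3 tissues and its differences between baclofen and vehicle were small. Its standing probe set, the brightest of the 6, lay between the 89.2th and 92.0th percentile of all probe sets other than controls in every group. In liver, the log2 levels of Nr3c1 after 1 day were 9.23, 9.23 and 9.26 with vehicle and 8.86, 9.20, 9.21 and 9.32 with baclofen. After 5 days they were 9.15, 8.81, 8.80 and 9.22 with vehicle, and 9.15 (lowest), 9.32 (median) and 9.48 (highest) in the 8 baclofen livers. The groups overlapped at both times, and the lowest vehicle values at 5 days were those of replicates 2 and 3. The Nr3c1 difference in liver, baclofen minus vehicle, was -0.09 ± 0.12 (SE, log2) at 1 day (-0.12 with the source field) and 0.33 ± 0.09 at 5 days, a 1.25-fold higher level. All 6 Nr3c1 probe sets were above 0 in liver at 5 days.

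In marrow, Nr3c1 was lower with baclofen after 1 day, at 9.55, 9.74, 9.80 and 9.75 against 9.89, 10.02, 10.02 and 9.93 with vehicle, and these groups did not overlap. The groups did not overlap for 13.3% of all genes there. The difference was -0.25 ± 0.07, and -0.28 without the array with muscle transcripts. At 5 days it was -0.12 ± 0.06, with vehicle at 10.15, 9.85, 9.92 and 10.03 and baclofen between 9.74 and 9.97 around a median of 9.88. None of the 6 Nr3c1 probe sets was above 0 in marrow at either time. In spleen the Nr3c1 differences were -0.07 ± 0.08 at 1 day and -0.02 ± 0.07 at 5 days, smaller than their errors. At 5 days the spleen value became 0.14 without the 5 arrays with transcripts of another tissue, which leaves 1 vehicle array there. Fewer cells of a type and less RNA per cell cannot be told apart in these bulk samples.

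Hsd11b1, the ligand-regenerating enzyme, was highest in liver, where it lay at the 99.3th to 99.5th percentile of the same probe sets, followed by marrow (93.9th to 95.8th) and spleen (90.4th to 91.8th). In liver after 5 days the log2 levels were 12.79, 12.61, 12.73 and 13.03 with vehicle and 12.94, 13.02 and 13.12 (lowest, median, highest) with baclofen, so vehicle replicate 4 reached into the baclofen range. The difference was 0.23 ± 0.07 at 5 days and 0.03 ± 0.09 at 1 day (0.06 with the source field). In marrow the difference ran the other way: after 5 days vehicle arrays were at 11.59, 10.74, 10.93 and 10.83 and baclofen arrays at 10.32, 10.41 and 10.92 (lowest, median, highest). The highest marrow vehicle value was replicate 1, and the ranges overlapped. This difference was -0.50 ± 0.14 at 5 days and -0.16 ± 0.16 at 1 day (-0.26 without the array with muscle transcripts). Marrow erythroid markers also differed at 5 days, at 11.35 to 11.88 with vehicle and 11.88 to 12.27 with baclofen, as did marrow macrophage markers, at 9.60 to 9.76 and 9.78 to 10.21. Their part in the Hsd11b1 and Nr3c1 values was not tested. In spleen the differences of Hsd11b1 were -0.23 ± 0.11 and -0.10 ± 0.10, and the latter became 0.02 without the 5 arrays named above. Hsd11b1 itself was 9.93, 9.86 and 9.55 in the 3 vehicle spleens with hepatocyte transcripts, within the range of the other spleens.

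**Figure D1:**
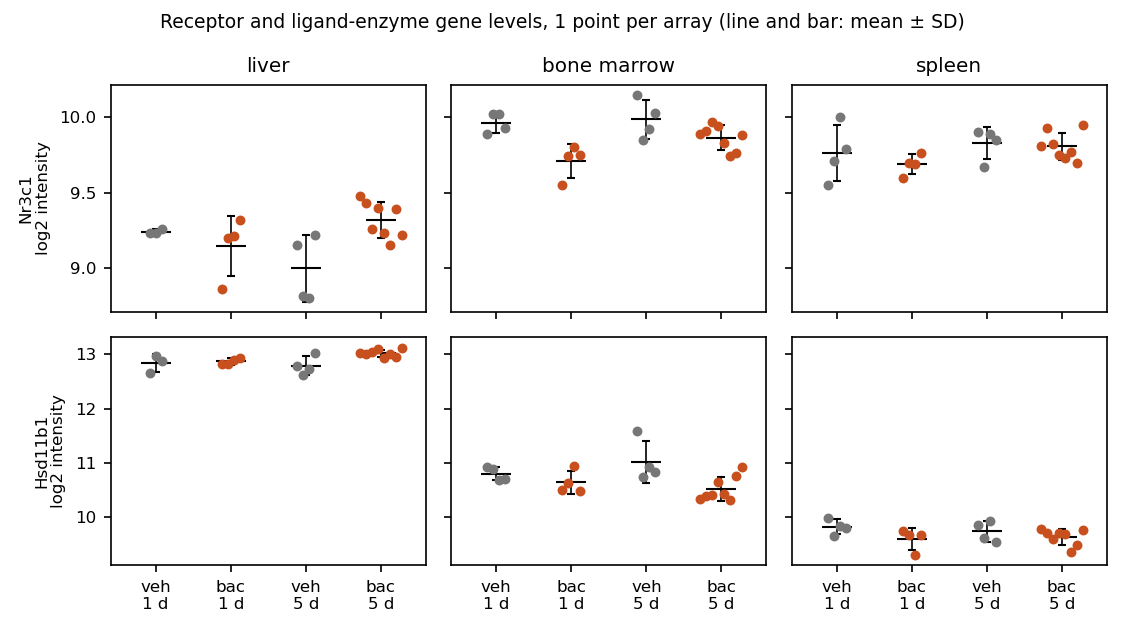
Log2 intensity (y axis) of Nr3c1 (upper row) and Hsd11b1 (lower row) in each array, by tissue (columns) and group (x axis; veh, vehicle, grey; bac, baclofen, orange; d, days); black lines and bars are mean ± SD. Hsd11b1 lies between 12.61 and 13.12 in liver, 10.32 and 11.59 in marrow and 9.31 and 9.99 in spleen, and most groups overlap for both genes.

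All 5 targets were higher with baclofen in liver and spleen at both times. In marrow, the 4 that were bright enough to be tested were also higher. Fkbp5 in spleen had log2 levels of 8.89, 10.78, 9.68 and 9.96 with vehicle and 10.99, 11.17, 11.31 and 10.91 with baclofen after 1 day. After 5 days the vehicle spleens were at 9.02, 9.83, 9.40 and 9.31 and the baclofen spleens at 10.74, 10.99 and 11.27 (lowest, median, highest). Neither pair of groups overlapped, and the Fkbp5 difference was 1.26 ± 0.26 (2.40-fold) at 1 day and 1.62 ± 0.22 (3.08-fold) at 5 days, the latter 1.14 without the 5 arrays named above. Over all genes in spleen, the groups did not overlap for 17.2% at 1 day and 5.08% at 5 days. The adipocyte markers were also higher in these 5-day baclofen spleens, as given above, and their part in the 5-day spleen values of the targets was not tested.

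In liver, Fkbp5 was at 8.48, 9.61 and 10.28 with vehicle and 10.04, 10.16, 10.83 and 10 with baclofen after 1 day, and vehicle replicate 3 lay above 3 of the 4 baclofen livers. After 5 days vehicle livers were at 8.20, 10.25, 9.35 and 9.36 and baclofen livers at 10.25, 10.55 and 11.03 (lowest, median, highest), touching at 10.25. The liver differences of Fkbp5 were 0.80 ± 0.38 (0.11 with the source field) and 1.28 ± 0.31 (2.42-fold). In marrow after 5 days, Fkbp5 was at 9.92, 10.50, 9.98 and 10.02 with vehicle and 10.85, 11.09 and 11.19 (lowest, median, highest) with baclofen, without overlap. The share of all genes without overlap was 5.25% there. The marrow difference was 0.94 ± 0.18 at 5 days and 0.55 ± 0.21 at 1 day, where vehicle replicate 2, at 11.20, lay above 3 of the 4 baclofen arrays. Without the array with muscle transcripts the 1-day value was 0.41.

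Tsc22d3, the gene of GILZ, was higher with baclofen in all 3 tissues, and did not overlap in 5 of the 6 tissue and time combinations. Over all genes, the groups did not overlap for 12.5% to 17.2% at 1 day and 5.08% to 5.49% at 5 days. In spleen Tsc22d3 was at 10.07, 11.46, 11.01 and 10.91 with vehicle and 12.50, 12.20, 12.09 and 12.53 with baclofen after 1 day. After 5 days the spleens were at 10.57, 10.62, 10.63 and 11 with vehicle and 11.80, 12.16 and 12.38 (lowest, median, highest) with baclofen. The spleen difference of Tsc22d3 was 1.47 ± 0.21 (2.77-fold) and 1.43 ± 0.18 (2.69-fold). In marrow the vehicle arrays were at 10.26, 11.31, 10.98 and 10.88 and the baclofen arrays at 11.62, 11.81, 11.83 and 11.68 after 1 day, a difference of 0.88 ± 0.16. At 5 days the marrow difference was 0.98 ± 0.13, with vehicle between 10.34 and 10.97 and baclofen between 11.56 and 11.86. In liver the differences were 0.89 ± 0.30 (-0.06 with the source field) and 0.90 ± 0.24, and the 1-day liver was the combination that overlapped, through vehicle replicate 3 at 10.95.

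Zbtb16 had its largest difference in the 5-day spleen, where vehicle arrays were at 6.53, 8.13, 7.51 and 7.32 and baclofen arrays at 8.90, 9.24 and 9.78 (lowest, median, highest). Every baclofen spleen lay above every vehicle spleen, where the groups did not overlap for 5.08% of all genes. The difference was 1.89 ± 0.29 (3.71-fold), or 1.12 without the 5 arrays named above. After 1 day the vehicle spleens were at 7.04, 9.08, 8.52 and 8.20 and the baclofen spleens at 9.05, 8.97, 9.37 and 9.20, so replicate 2 of vehicle reached the baclofen range and the difference was 0.94 ± 0.34. In marrow Zbtb16 was at 7.38, 7.58, 7.42 and 7.58 with vehicle after 5 days, and at 8.18, 8.53 and 9.17 (lowest, median, highest) with baclofen, a difference of 1.05 ± 0.18. The 1-day marrow difference was 0.59 ± 0.21, with overlap because baclofen replicate 1 was at 7.99. In liver the differences were 0.58 ± 0.24 at 1 day (-0.20 with the source field) and 0.98 ± 0.20 at 5 days, when vehicle livers were at 7.23, 8.57, 8.45 and 8.43 and baclofen livers between 8.84 and 9.47, without overlap. The share of all genes without overlap was 5.49% there.

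Sgk1 had larger differences in liver than in marrow and spleen. In liver after 1 day it was at 7.97, 7.57 and 8.40 with vehicle and 10.23, 9.89, 9.42 and 9.96 with baclofen, without overlap, a difference of 1.89 ± 0.31 (3.72-fold). With the source field this value was -0.57. After 5 days the vehicle livers were at 8.69, 7.47, 6.97 and 7.36 and the baclofen livers at 8.56, 8.96 and 9.43 (lowest, median, highest), so vehicle replicate 1 reached into the baclofen range. The 5-day liver difference was 1.32 ± 0.25 (2.49-fold). In marrow the differences were 0.56 ± 0.11 and 0.33 ± 0.10, and in spleen 0.64 ± 0.12 and 0.62 ± 0.10. These 4 comparisons did not overlap, for example 9.51, 9.51, 9.48 and 9.63 in the 5-day vehicle marrow against 9.69, 9.86 and 10.03 (lowest, median, highest) with baclofen. The shares of all genes without overlap were 13.3% and 5.25% in marrow and 17.2% and 5.08% in spleen, and 12.5% in the 1-day liver.

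Fam107a was higher with baclofen in liver and spleen, and was dim in marrow and in the vehicle livers. In liver after 1 day it was at 4.11, 5.63 and 6.19 with vehicle and 7.26, 7.62, 8.43 and 8.27 with baclofen, a difference of 2.58 ± 0.49, or -0.75 with the source field. After 5 days the vehicle livers were at 4.33, 6.08, 5.55 and 4.34 and the baclofen livers at 6.02, 7.35 and 7.85 (lowest, median, highest), a difference of 2.20 ± 0.40. The only baclofen liver inside the vehicle range was replicate 3 at 6.02. The geometric mean intensity of the vehicle livers was 39.7 at 1 day and 33.7 at 5 days, under the lowest level that passed the brightness limit in liver, 42.9. Fam107a therefore entered the liver test only through its baclofen arrays, and no fold is given there. In spleen Fam107a was at 5.30, 7.19, 7.19 and 7.27 with vehicle and 8.77, 8.63, 8.93 and 8.53 with baclofen after 1 day, a difference of 1.97 ± 0.33 (3.93-fold). The 5-day spleen groups did not overlap either, with vehicle at 5.82, 6.99, 6.48 and 6.29, baclofen between 8.15 and 9.07, and a difference of 2.10 ± 0.29 (4.27-fold), or 1.49 without the 5 arrays named above. Of all genes in spleen, 17.2% at 1 day and 5.08% at 5 days had no overlap. In marrow the probe set standing for Fam107a had geometric mean intensities of 44.7 to 46.8 in the 4 groups, where the lowest level that passed was 83.6, and the gene was left out of the test there.

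**Figure D2:**
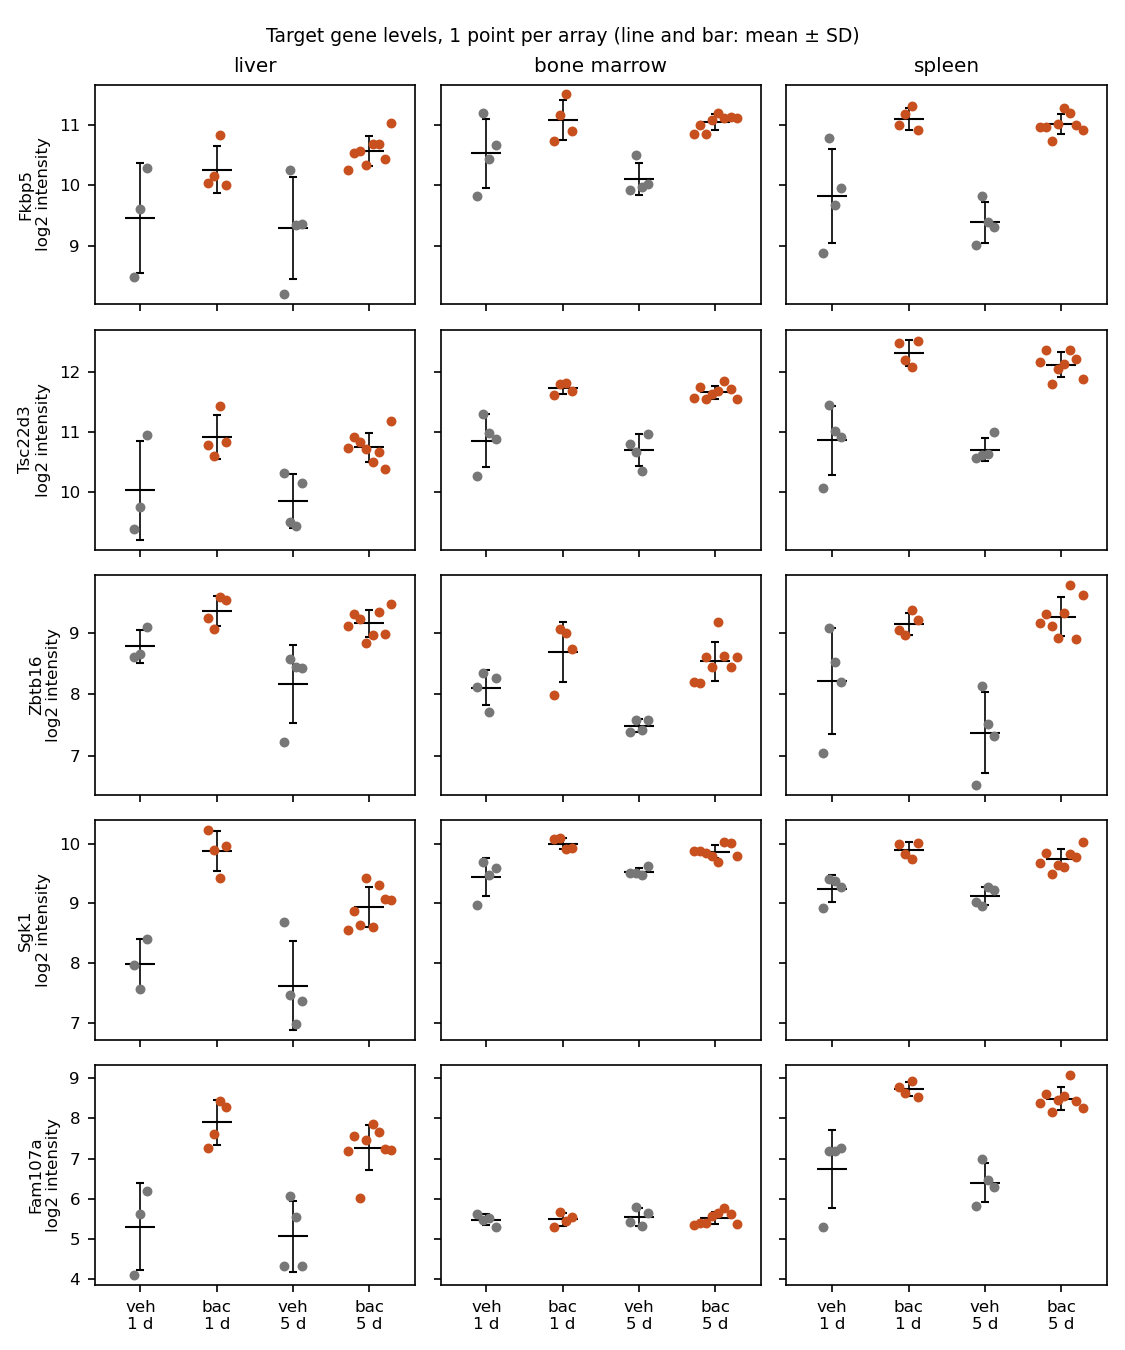
Log2 intensity (y axes, on a scale per gene) of the 5 target genes in each array, by tissue (columns) and group (x axis; veh, vehicle, grey; bac, baclofen, orange; d, days); black lines and bars are mean ± SD. The orange points sit above the grey ones for Tsc22d3 and Fkbp5 in spleen, the grey points are widely spread in several panels, and Fam107a in marrow lies between 5.3 and 5.8 in all arrays.

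A gene was called when its adjusted p in limma (Benjamini-Hochberg over 10916 genes) was under 0.05. These contrasts chose the members, so the counts describe them and nothing is read from them. In liver 2 of the 7 members were called at 1 day (Sgk1 and Fam107a, both higher), where 2.67% of all genes tested were called (1.58% higher, 1.09% lower), and 7 of 7 at 5 days, all higher, Fam107a among them though tested only through its baclofen arrays, where 10.6% were (4.86% higher, 5.75% lower). The 1-day liver count was 0 with the source field, as was the number called over all genes. The 5-day liver count was 4 without vehicle replicate 2 or without vehicle replicate 3. In marrow 3 of 6 were called at 1 day (Tsc22d3 and Sgk1 higher, Nr3c1 lower), against 7.36% of all genes (3.11% higher, 4.25% lower). At 5 days 5 of 6 were called (4 targets higher, Hsd11b1 lower), against 10.1% (6.15% higher, 3.93% lower). The 5-day marrow count was 3 without any 1 of vehicle replicates 1 and 3 and baclofen replicates 1, 2 and 6. In spleen 4 of 7 were called at 1 day (all targets but Zbtb16, all higher), against 15.5% (7.64% higher, 7.91% lower), and 5 of 7 at 5 days (the 5 targets, all higher), against 4.43% (3.05% higher, 1.38% lower). The 5-day spleen count was 2 without the 5 arrays named above. Groups that did not overlap made up 12.5% and 5.49% of all genes in liver, 13.3% and 5.25% in marrow, and 17.2% and 5.08% in spleen, at 1 and 5 days. The median difference of the members was 0.80 and 0.98 in liver, 0.56 and 0.64 in marrow and 0.94 and 1.43 in spleen at 1 and 5 days, while the median of all genes was between -0.03 and 0.00.

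**Figure D3:**
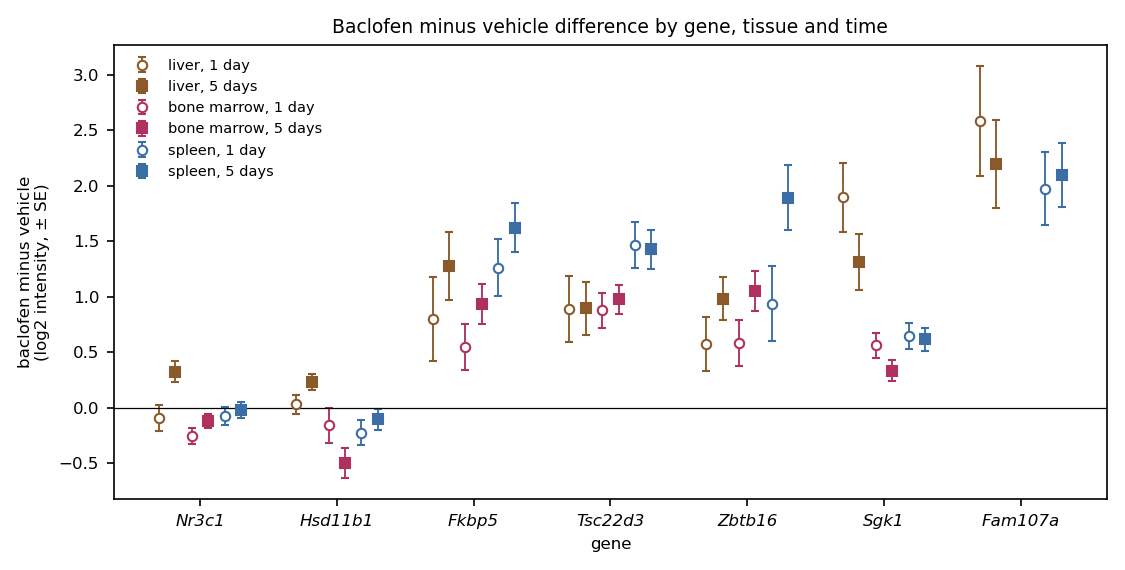
Baclofen minus vehicle difference (y axis, log2 intensity, ± SE from limma) of each gene (x axis) in liver (brown), marrow (red) and spleen (blue) at 1 day (open circles) and 5 days (filled squares). The 5 targets lie above 0 wherever shown, Nr3c1 and Hsd11b1 lie within 0.5 of 0, and the highest point is Fam107a in the 1-day liver at 2.58.

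Probe sets of the same gene did not always give the same size. Of the 4 Tsc22d3 probe sets 1 was below the brightness limit in every tissue, and another, at the 58.3th percentile in spleen, gave only 0.17 and 0.16 there, where the standing probe set gave 1.47 and 1.43. The dimmest Fkbp5 probe set, at the 0.9th to 2.7th percentile, gave -0.09 to 0.13, while the second bright one gave 1.11 and 1.21 in spleen. All 3 Zbtb16 probe sets were above 0 in each tissue at each time. In marrow the standing Fam107a probe set gave 0.01 and -0.03, whereas the dimmer one that stands for the gene in liver and spleen gave 0.58 ± 0.18 and 0.51 ± 0.15 at the 15.5th percentile.

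The spread of the targets also differed between the groups, which the contrast of means did not use. Over 28 target, tissue and time combinations, the SD of the vehicle arrays was larger than that of the baclofen arrays in 23. In the 1-day spleen all 5 targets had the larger SD with vehicle: 0.78 against 0.18 for Fkbp5, 0.58 against 0.22 for Tsc22d3, 0.86 against 0.18 for Zbtb16, 0.22 against 0.14 for Sgk1 and 0.96 against 0.17 for Fam107a. Vehicle replicate 1 held the lowest value of these vehicle spleens for each of the 5 targets. For Fam107a it was at 5.30, against 7.19 to 7.27 in the others. The 5 SDs therefore share that array, and SDs without it were not computed. Over all genes tested in that comparison the vehicle SD was the larger in 68.2%, with a median ratio of 1.44. In liver the vehicle SD was the larger for all 5 targets at both times, against 43.7% and 58.3% of all genes at 1 and 5 days. In marrow it was the larger for 3 of 4 targets at 1 day and 2 of 4 at 5 days, against 53.4% and 55.9%. For the 5-day spleen this was 3 of 5, against 63.6%, so the 5-day marrow and spleen counts lie near the shares of all genes. The 5 exceptions were Zbtb16 in marrow at both times, Sgk1 in the 5-day marrow and Tsc22d3 and Sgk1 in the 5-day spleen. Spread from 3 to 8 arrays is imprecise, and no test was made. The 28 combinations are not independent, because the targets were read on the same arrays.

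Within the vehicle groups, the array numbered 1 held the lowest Fkbp5 level in all 3 tissues at both times. It was at 8.48, 9.82 and 8.89 in liver, marrow and spleen at 1 day and at 8.20, 9.92 and 9.02 at 5 days. At 5 days the array numbered 2 held the highest Fkbp5 level in all 3 tissues (10.25, 10.50 and 9.83). For Zbtb16 the vehicle array numbered 1 was also the lowest in all 3 tissues at 5 days, at 7.23, 7.38 and 6.53, and for Tsc22d3 in all 3 tissues at 1 day, at 9.37, 10.26 and 10.07. At the other time the lowest array in liver, marrow and spleen was numbered 1, 3 and 1 for Zbtb16 and 3, 3 and 1 for Tsc22d3. For Nr3c1, Hsd11b1, Sgk1 and Fam107a the number of the lowest array differed between tissues at both times. The labels do not say whether a number marks the same mouse in the 3 tissues, so this is a description of the numbered arrays. Over all genes, the deviations of same-numbered arrays of a group in 2 tissues had a correlation over 0.1 in 21 of 58 pairs (median 0.086, highest 0.479). The same number was the best match in 29 of 58, each match being sought among the 3 to 8 arrays of the group. Between vehicle and baclofen arrays of a tissue it was the best match in 4 of 23. The rate of such matches by chance was not computed.

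**Figure D4:**
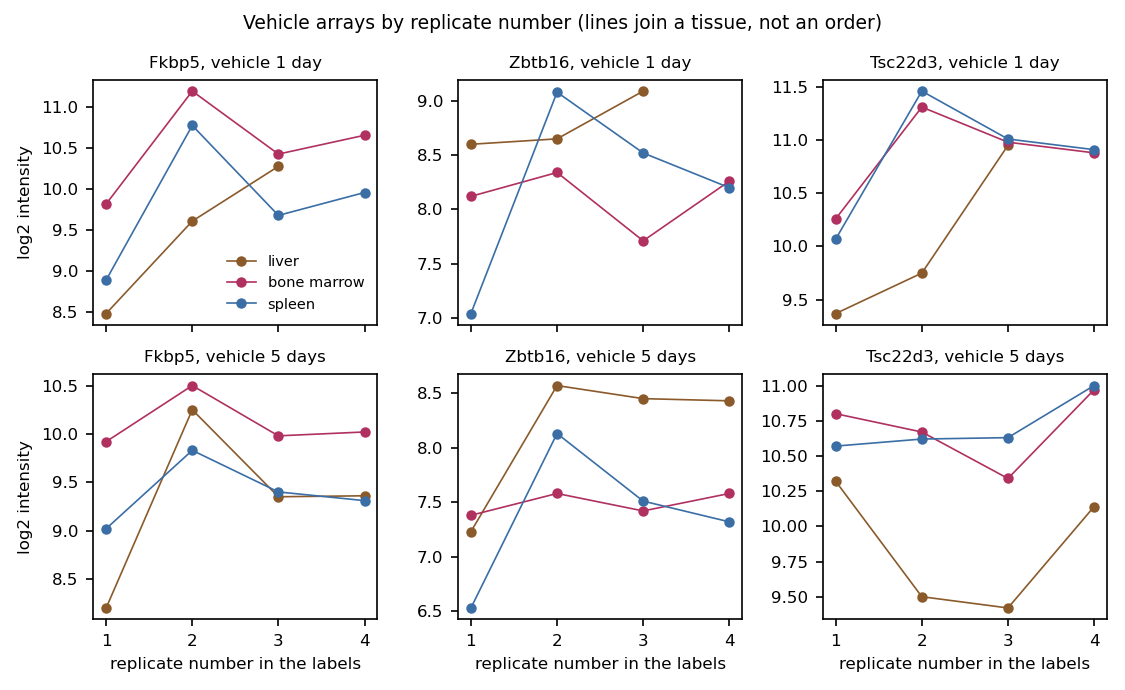
Log2 intensity (y axes) of Fkbp5, Zbtb16 and Tsc22d3 in the vehicle arrays at 1 day (upper row) and 5 days (lower row) by the replicate number in the labels (x axis), for liver (brown), marrow (red) and spleen (blue); lines join the arrays of a tissue and imply no order. Number 1 holds the lowest Fkbp5 value of each tissue at both times.

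The differences at 1 and 5 days share no samples within a tissue, and their change with time was fitted in the same limma model. The values that chose the members enter this change, so it is given with its error and no p. The largest change among the members was that of Zbtb16 in spleen, whose difference was 0.96 ± 0.45 larger at 5 days. For Nr3c1 in liver the change was 0.42 ± 0.15 (0.45 with the source field), and for Sgk1 in liver -0.58 ± 0.40 (1.89 with the source field). The mean of Nr3c1 in liver went from 9.24 to 8.99 with vehicle and from 9.15 to 9.32 with baclofen. Its change thus holds a fall in the vehicle livers as well as a rise in the baclofen livers. The number of members past an adjusted p of 0.05 was 0 in each tissue, and over all genes it was 2 of 10916 (0.0183%) in liver and 0 in marrow and spleen by limma, with 1050, 559 and 858 genes at an unadjusted p under 0.05.

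Between the vehicle groups, 5 days minus 1 day, no gene passed in any tissue by limma, with 779, 510 and 378 at an unadjusted p under 0.05 in liver, marrow and spleen. The vehicle arrays entered the choice of the members, so the members' values here are a description with no p. Zbtb16 had values of -0.61 ± 0.24, -0.62 ± 0.21 and -0.84 ± 0.34 there, and Nr3c1 in liver -0.248 ± 0.115. The source field puts arrays titled baclofen among the 1-day vehicle livers. With it the liver value was -1.02 for Zbtb16, the 1 member then past the threshold, and -1.69 for Sgk1.

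The size of the baclofen difference was also compared between tissues, in a limma fit of all 12 groups. The values that chose the genes enter this comparison too, so the members' values are a description with no p. Among the targets bright enough in both tissues, Sgk1 had a smaller difference in marrow than in liver, by -1.33 ± 0.29 at 1 day and -0.98 ± 0.24 at 5 days. In spleen it was smaller than in liver by -1.25 ± 0.29 and -0.70 ± 0.24. With the source field both 1-day values of Sgk1 turned to 1.14 and 1.22. For Hsd11b1 at 5 days the difference was smaller in marrow than in liver by -0.73 ± 0.16, with opposite signs in the 2 tissues. Nr3c1 at 5 days also had opposite signs in marrow and liver, with a gap of -0.44 ± 0.11. Its gap between spleen and liver was -0.35 ± 0.11 at 5 days, and -0.18 without the 5 arrays with transcripts of another tissue. Liver macrophage markers were at 8.33 to 8.88 with vehicle and 7.94 to 8.42 with baclofen at 5 days, and their part in the liver values was not tested.

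Zbtb16 had a larger 5-day difference in spleen than in liver, by 0.91 ± 0.34, and than in marrow, by 0.84 ± 0.34. The first of these was 0.14 without the 5 arrays named above. The 2 adipocyte markers tested moved the same way at 5 days, with a median of 1.41 for spleen minus liver and 1.25 for spleen minus marrow, and their part in the Zbtb16 values was not tested. Tsc22d3 gave 0.58 ± 0.34 for spleen minus liver at 1 day, and 1.53 with the source field. Fam107a, which stood by a different probe set in this fit, gave -0.25 ± 0.32 and 0.15 ± 0.26 for spleen minus liver, and 1.98 at 1 day with the source field.

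The number of members past an adjusted p of 0.05 in these fits is set beside the share of all genes, and nothing is read from it. For marrow minus liver it was 1 at 1 day (Sgk1) and 3 at 5 days (Sgk1, Hsd11b1 and Nr3c1), against 2.28% and 7.83% of all genes. For spleen minus liver it was 1 at 1 day (Sgk1) and 2 at 5 days (Sgk1 and Nr3c1), against 6.51% and 11.7%. For spleen minus marrow it was 0 at both times by limma, against 1.91% and 4.48%, with 2148 and 2349 genes at an unadjusted p under 0.05. The spleen minus liver count at 5 days rested on values near the threshold: Sgk1 passed in 8 and Nr3c1 in 24 of 30 alternatives, and Zbtb16, not counted, in 5 of 30. Fkbp5 and Hsd11b1 each passed in 1 of 30 for spleen minus marrow at 5 days. These fits treat the 59 arrays as independent samples, although the same number was the best match between tissues in 29 of 58 pairs.

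Further genes of the pathway were taken from 5 lists that hold none of the 7 members. These lists were also chosen with earlier results of these data known, so their counts and adjusted p-values below are a description. Of 35 genes known as glucocorticoid-induced, 17 of the 31 tested rose in liver at 1 day and none fell. With the source field 0 passed there, both of these genes and over all genes. At 5 days 19 rose and 2 fell in liver. Over all genes in liver, 1.58% rose and 1.09% fell at 1 day, and 4.86% rose and 5.75% fell at 5 days. The 2 of 31 that fell at 5 days lie near that share. The median difference of this list was 0.96 and 0.88 in liver, against -0.01 and -0.02 over all genes. In liver at 1 day Ddit4, an inhibitor of mTORC1, rose by 3.43 ± 0.45 (adjusted p = 0.000262 in limma), and the transcription factor genes Cebpd and Cebpb rose by 2.02 ± 0.24 and 1.49 ± 0.18 (adjusted p = 0.000141 and 0.000184 in limma). With the source field these 3 were -1.35, -0.78 and -0.68, and without vehicle replicate 1 or 2 the genes of the 5 lists that passed at 1 day were 10 in place of 17. At 5 days in liver Pck1, the gluconeogenic phosphoenolpyruvate carboxykinase gene, rose by 0.90 ± 0.10, Cebpd by 1.67 ± 0.19 and Cebpb by 1.24 ± 0.15. The 2 that fell, named after their values were seen, were Lcn2, an acute-phase gene, at -3.80 ± 0.93 (adjusted p = 0.0136 in limma) and Tgm2, a transglutaminase gene, at -0.55 ± 0.13 (adjusted p = 0.0108 in limma).

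In marrow 12 of 29 induced genes rose and 3 fell at 1 day, and 13 rose and 4 fell at 5 days, with list medians of 0.40 and 0.34. Over all genes in marrow, 3.11% rose and 4.25% fell at 1 day, and 6.15% rose and 3.93% fell at 5 days. The clock gene Per1 rose by 2.14 ± 0.22 and 2.22 ± 0.19, and Ddit4 by 2.30 ± 0.31 and 2.35 ± 0.27. Dusp1, a MAP kinase phosphatase gene, rose by 1.69 ± 0.21 at 1 day and Glul, the glutamine synthetase gene, by 0.40 ± 0.05 at 5 days. Cebpd, named here after its values were seen, fell in marrow by 0.78 ± 0.19 and 0.67 ± 0.16 (adjusted p = 0.0151 and 0.0167 in limma), where it had risen in liver. The others that fell in marrow, also named after their values were seen, were Bcl6 (both times) and Zfp36 at 1 day and Anxa1 and Lcn2 at 5 days, by 0.19 to 0.51. Without baclofen replicate 3, the array with muscle transcripts, 25 genes of the 5 lists passed at 1 day in place of 16. Over all genes 1412 in place of 803 then passed. Without vehicle replicate 3 or without baclofen replicate 1, 2 or 4 the count of the lists was 9 or 10. At 5 days it was 10 without vehicle replicate 1 and 13 without vehicle replicate 3, in place of 22.

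In spleen 13 of 30 induced genes rose and 2 fell at 1 day, and 15 rose and 0 fell at 5 days, with list medians of 0.33 and 0.37. Over all genes in spleen, 3.05% rose and 1.38% fell at 5 days, and 7.64% rose and 7.91% fell at 1 day. The 2 of 30 that fell at 1 day lie near that share. Errfi1, which encodes a feedback inhibitor of EGF receptor signalling, rose by 2.13 ± 0.28 and 2.17 ± 0.24 (adjusted p = 0.00021 and 0.000151 in limma). Sesn1 rose by 1.31 ± 0.16 and Per1 by 1.45 ± 0.20 at 1 day, and the Krüppel-like factor genes Klf9 and Klf15 by 1.25 ± 0.13 and 1.28 ± 0.16 at 5 days. The adipocyte markers were higher in the same 5-day baclofen spleens. Without the 5 arrays named above Klf9 was at 1.12 and Klf15 at 1.39. The 2 that fell at 1 day, named after their values were seen, were Anxa1 and Bcl6, by 0.71 ± 0.21 and 0.50 ± 0.17. At 5 days 12 genes of the 5 lists passed without vehicle replicate 1, in place of 20, and 7 without the 5 arrays named above.

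Among the receptor chaperones, 5 of 9 fell in spleen at 1 day and 4 of 9 at 5 days, where 7.91% and 1.38% of all genes fell, with list medians of -0.47 and -0.33. The co-chaperone genes Dnaja1 and Stip1 fell by 0.61 ± 0.11 and 0.58 ± 0.11 at 1 day and by 0.48 ± 0.09 and 0.42 ± 0.10 at 5 days, and Hspa8, a constitutive HSP70 gene, by 0.47 ± 0.08 and 0.29 ± 0.07. The 5-day spleen calls were lost in 3 alternatives for Dnaja1, 5 for Stip1 and 9 for Hspa8, for all 3 without the 5 arrays named above. The 8 erythroid markers had a median difference of -0.545 at 1 day and -0.851 at 5 days in spleen, and none passed. Their part in the spleen chaperone values was not tested. In the 5-day marrow 2 of 9 passed, against 3.93% of all genes lower, Dnaja1 at -0.30 ± 0.09 and Hspa8 at -0.30 ± 0.09, both near the threshold (adjusted p = 0.0408 and 0.044 in limma). Dnaja1 lost that call in 12 alternatives and Hspa8 in 11, among them each of vehicle replicates 1, 2 and 3 left out. In liver and the 1-day marrow none of 9 passed.

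Of 10 cofactor genes, 1 rose in the 1-day marrow and 2 in the 5-day marrow, where 3.11% and 6.15% of all genes rose. In the 1-day spleen 1 rose and 1 fell, close to the 7.64% and 7.91% of all genes, and in liver and the 5-day spleen none passed. The members that passed were the corepressor gene Nrip1, at 0.52 ± 0.11 and 0.43 ± 0.09 in marrow and 0.30 ± 0.08 in the 1-day spleen, Carm1, an arginine methyltransferase gene, at 0.30 ± 0.08 in the 5-day marrow, and Ep300, an acetyltransferase gene, at -0.37 ± 0.09 in the 1-day spleen. Without vehicle replicate 1 neither Nrip1 (0.37) nor Carm1 (0.22) passed in the 5-day marrow, and Nrip1 lost its spleen call in 3 alternatives.

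Of the ligand supply genes, H6pd, which supplies NADPH to the Hsd11b1 enzyme, fell in the 5-day liver by 0.43 ± 0.12 (adjusted p = 0.0223 in limma), a call lost in 4 alternatives, among them without vehicle replicate 2 or 3. It was 1 of 4 tested there, where 5.75% of all genes fell. Abcb1a, a drug and steroid efflux pump gene, was at 0.37 ± 0.10 and 0.34 ± 0.09 in spleen and passed at both times. It was 1 of 2 tested there, where 7.64% and 3.05% of all genes rose. Its call was lost in 4 alternatives at 1 day, with vehicle replicate 1 or 4 or baclofen replicate 1 left out among them, and in 7 at 5 days, with vehicle replicate 1 or 2 left out among them.

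Of the genes known as repressed by glucocorticoids, none of 7 passed in liver. Il1b fell in the 5-day marrow by 0.99 ± 0.26 (adjusted p = 0.0236 in limma), where 1 of 9 passed, and in the 1-day spleen by 1.21 ± 0.32 (adjusted p = 0.017 in limma). Mmp9, a neutrophil gelatinase gene, fell in the 1-day spleen by 1.13 ± 0.30 (adjusted p = 0.0168 in limma), making 2 of 8 there, and none of 8 passed in the 5-day spleen. Over all genes, 3.93% fell in the 5-day marrow and 7.91% in the 1-day spleen. The mean of 10 neutrophil markers in the 1-day spleens was 9.10 to 10.49 with vehicle and 8.83 to 9.18 with baclofen, and its part in the Il1b and Mmp9 values was not tested. Without spleen vehicle replicate 1 neither passed at 1 day, and without marrow vehicle replicate 2 or 3 Il1b did not pass in the 5-day marrow.

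**Figure D5:**
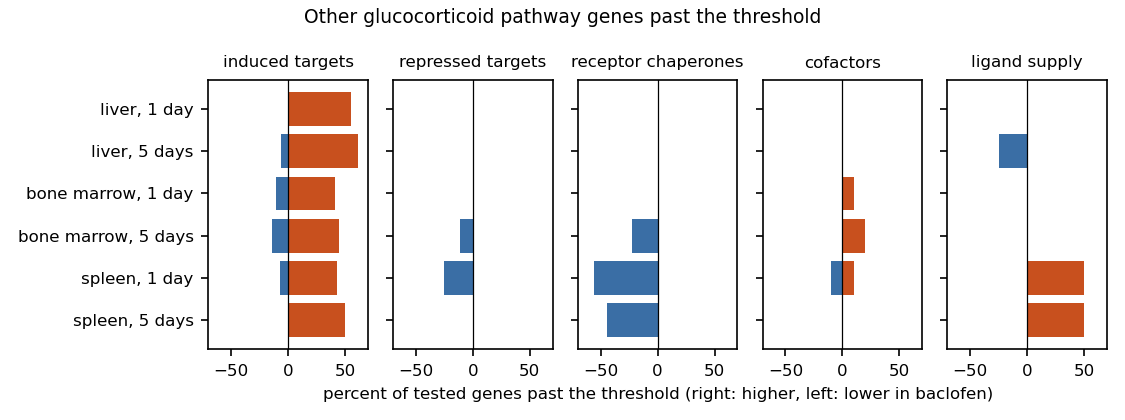
Percent of the tested genes of 5 pathway lists (panels) that passed an adjusted p of 0.05 in limma in each tissue and time (rows), higher with baclofen to the right (orange) and lower to the left (blue). The induced targets lie mostly to the right in all 6 rows, with 17 of 31 in the 1-day liver (1.58% of all genes were higher there). The receptor chaperones reach left in spleen, with 5 of 9 at 1 day (7.91% of all genes were lower there).

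Across the 59 arrays, with each gene centred on its mean in each tissue, the targets had higher r with each other than with the receptor gene, and these values contain the group differences that chose the genes. Pearson's r between Fkbp5 and Zbtb16 was 0.87 and between Fkbp5 and Tsc22d3 0.83, whereas Nr3c1 had r of -0.05 to 0.11 with the 5 targets and 0.44 with Hsd11b1. With each gene centred on its group mean instead, r between Fkbp5 and Zbtb16 was 0.77 in liver, 0.49 in marrow and 0.83 in spleen. In liver, Sgk1 then had r of -0.54 with Zbtb16, -0.37 with Fkbp5 and -0.25 with Fam107a, and Tsc22d3 had 0.13 with Zbtb16. In spleen the r between targets ranged from 0.32 to 0.83, and Nr3c1 had 0.57 with Sgk1. Among 9044 genes that passed the brightness limit in all tissues, the most like Fkbp5 were Zbtb16, Tsc22d3 and Mlxip (r = 0.82), and the most like Tsc22d3 were Mlxip (r = 0.88), Per1 (r = 0.86) and Iws1 (r = 0.85). Zbtb16 was most like Fkbp5, Tns1 (r = 0.80) and Tsc22d3 (r = 0.78). Sgk1 was most like Tcim (r = 0.85), Trp53inp1 and Pim3 (both r = 0.82), none of them a member. Fam107a itself was below the brightness limit in marrow, and in all these correlations it stood by the probe set of the fit between tissues. It was most like Rapgef5 (r = 0.80), Cdc37l1 (r = 0.78) and Fkbp5 (r = 0.77). Nr3c1 was most like Ppp1r12a (r = 0.78), Brd1 (r = 0.75) and Mospd2 (r = 0.74), and Hsd11b1 most like Gng12 (r = 0.79), Glrx (r = 0.77) and Cpne3 (r = 0.76).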

How the data were processed

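Gene expression was measured on 59 arrays of 45101 probe sets. The authors deposited one signal intensity per probe set and array on a linear scale, made with RMA per the submitters' processing notes, which also name limma. The array annotation gave 34945 probe sets 1 gene symbol, 932 several and 9160 none, and 64 control probe sets were left out. Intensities were converted to log2 here. A gene stood by its brightest probe set in the tissue (over all arrays for the test between tissues and for the correlations). Genes under the 40th percentile of the standing probe sets' mean level in the tissue were left out, which left 10916 per tissue. For the test between 2 tissues genes had to pass in both.

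Differences were fitted with limma 3.58.1 (lmFit, eBayes) in R 4.3.3, per tissue with 4 groups and over 12 groups for tests between tissues, with Benjamini-Hochberg adjustment over all genes tested. The fit was tested on simulated data. Array number limits the precision. Groups came from the sample titles. The replicate numbers were not taken to pair the samples, since the labels do not say that they do. Within a tissue, same-numbered arrays had deviations correlated over 0.1 in 5 of 23 pairs and were the best match in 4. Between tissues this was 21 of 58 pairs, with 29 best matches. If a number marks the same mouse in the 3 tissues, the errors between tissues do not account for it. The members and all lists were chosen with earlier results of these data known. From each pathway list and comparison the up to 3 genes with the smallest adjusted p that passed were named, and for likeness the 3 highest r. Of the lists' symbols, 6 of 7 (ligand supply), 9 of 12 (chaperones), 10 of 12 (cofactors), 35 of 35 (induced) and 15 of 16 (repressed) had a probe set. Promoters were read from RefSeq in Python 3.11.15, and figures were drawn with matplotlib 3.10.9.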

Additional observations from a re-analysis of the deposited data

Results flagged for a closer look

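Of 77 groups of 4 to 10 arrays examined for the 7 genes, 7 held an array far from the others, and about 1 in 20 is flagged by chance. Hsd11b1 was 9.31 in replicate 3 of the 1-day baclofen spleen, while the rest of its group lay at 9.67 to 9.74. Fkbp5 was 10.50 in marrow vehicle 5-day replicate 2, against 9.92 to 10.02. Tsc22d3 was 11 in spleen vehicle 5-day replicate 4, against 10.57 to 10.63. Zbtb16 was 7.23 in liver vehicle 5-day replicate 1, against 8.43 to 8.57, and 9.17 in marrow baclofen 5-day replicate 5, against 8.18 to 8.63. Fam107a was 6.02 in liver baclofen 5-day replicate 3, against 7.18 to 7.85, and 5.30 in spleen vehicle 1-day replicate 1, against 7.19 to 7.27.

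In 7 results the baclofen difference passed the test of a difference between 2 tissues in limma; the values that chose the genes enter that test, so these are descriptions. For Sgk1 it was smaller in marrow than in liver by -1.33 at 1 day and -0.98 at 5 days, and smaller in spleen than in liver by -1.25 at 1 day and -0.70 at 5 days. For Nr3c1 at 5 days it was smaller by -0.44 in marrow and -0.35 in spleen than in liver, and for Hsd11b1 by -0.73 in marrow.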

How the results depend on the processing

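Alternatives changed the gene normalization, the brightness limit, the samples in the fit, the labels of the 1-day livers and the arrays left out. With the source field for the 1-day livers, 0 members and 0 pathway genes were called in liver at 1 day. Over all genes the number called there was also 0, in place of 291 with the titles. With that field 1 member was called in vehicle 5 days minus 1 day. At 1 day the member count was then 0 in marrow minus liver and 2 in spleen minus liver. The 1-day liver values turned to -0.574 (Sgk1), -0.745 (Fam107a), -0.775 (Cebpd), -0.683 (Cebpb) and -1.352 (Ddit4), and the differences between tissues to 1.136 (Sgk1, marrow minus liver), 1.218 (Sgk1, spleen minus liver) and 1.982 (Fam107a, spleen minus liver). With only the groups compared, 1 member and 9 pathway genes were called in the 1-day marrow, where 269 in place of 803 were called over all genes. Without the 5 arrays with transcripts of another tissue, 25 pathway genes were called in the 1-day marrow, 2 members and 7 pathway genes in the 5-day spleen and 0 members in spleen minus liver at 5 days. Over all genes 1412 in place of 803 were then called in the 1-day marrow. Spleen vehicle at 5 days then has 1 array, assumed to vary like the other groups, and nothing is read from the spleen counts. Without the 4 arrays with the most such transcripts, an alternative chosen after seeing the data, the counts were 25 pathway genes in the 1-day marrow, 8 in the 5-day spleen, 0 members in spleen minus liver and 1 in spleen minus marrow at 5 days. Over all genes 173 in place of 484 were then called in the 5-day spleen. Without the brightness limit 2 members were called in marrow minus liver at 1 day, 1 in spleen minus liver at 5 days and 1 in spleen minus marrow at each time, and with quantile normalization 1 in spleen minus liver at 5 days. With the replicate number as a block, 4 members were called in the 5-day liver, 1 member and 6 pathway genes in the 5-day marrow, 9 pathway genes in the 5-day spleen and 1 member (Fkbp5) in spleen minus marrow at 5 days, and Zbtb16 was added in spleen minus liver at 5 days. Over all genes 30 in place of 1100 were called in the 5-day marrow, and 607 in place of 803 in the 1-day marrow. In the 5-day liver it was 385 in place of 1159, and in the 5-day spleen 61 in place of 484. Within a tissue, replicate numbers 5 to 8 occur only in the 5-day baclofen group. In the fits within a tissue the block fits each of those arrays exactly, so they add nothing to the 5-day difference. The cause of these shifts was not tested.

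Leaving out 1 array at a time gave 2 to 3 members called in the 1-day liver, 4 to 7 in the 5-day liver, 2 to 3 and 3 to 5 in marrow, and 4 to 5 and 5 in spleen at 1 and 5 days. Pathway genes called ranged from 10 to 16 and 19 to 28 in liver, 9 to 25 and 10 to 28 in marrow, and 20 to 28 and 12 to 24 in spleen, and members in spleen minus liver at 5 days from 0 to 3. The number of arrays per group limits what changes with time could be detected.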
